A study of Mus musculus with 6 samples.

Results

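Pluripotency factor genes other than Oct4 were taken as the 10 genes Nanog, Sox2, Sall4, Klf2, Klf4, Klf5, Esrrb, Tcfcp2l1, Tbx3 and Zfp42, out of 22350 protein-coding genes of the mm9 annotation. They were named by their place in the pluripotency network. No value measured here enters that rule, but earlier results of these data were known when the list was drawn up, so the counts of bound genes below are a description. Each was studied over its annotated bounds and 20 kb on each side, 696 kb in all, and 40 of the 12247 genomic regions built from the 3 deposited peak lists overlapped these windows.

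The data were pSmad2 ChIP-Seq libraries of E14 TG2A, a mouse embryonic stem (ES) cell line. In ChIP-Seq the DNA held by a protein is precipitated with an antibody, in this case one to Smad2 carrying the phosphates that the activated receptor adds, and sequenced as short tags. All cells were first kept for 6 h with 10 uM SB-431542 (SB), an inhibitor of the Activin and Nodal type I receptor kinases, in medium with 20% knockout serum replacement (KSR). They were then kept for 18 h with 25 ng/ml Activin (high signaling), with DMSO at 1/5000 as the carrier control (medium, endogenous signaling), or with 10 uM SB (low signaling). By the methods of the study, the KSR medium of pretreatment and treatments held no leukemia inhibitory factor (LIF). Each treatment had 1 ChIP and 1 input library, input being chromatin that did not pass the antibody. There was no replicate check, so every test below compares libraries and not cultures, and every interval covers counting error only. One cell line gave all 6 libraries, and no RNA was measured in them, so the ES cell identity was not checked against marker genes.

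Activin and Nodal bind pairs of receptor kinases at the cell surface, and these phosphorylate Smad2 and Smad3. With Smad4 they move to the nucleus and bind short CAGA-type Smad-binding elements, mostly beside other factors. ES cells make their own Nodal, so the pathway is active in the carrier control. Nanog, Sox2 and Sall4 belong to the core of the pluripotency network. Klf2, Klf4, Klf5, Esrrb, Tcfcp2l1 and Tbx3 are factors of the naive state, several of them downstream of LIF and Stat3, and Zfp42 (Rex1) is the usual marker of that state.

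The ChIP libraries held 10537724 (Activin), 9713869 (DMSO) and 7805150 (SB) tags after tags with the same position and strand had been kept once, and the inputs 10895120, 11913742 and 9786787. Levels are tags of a region divided by these totals, so they are shares of a library. They cannot show a change of binding over the whole genome. The paper reports by western blot more phosphorylated Smad2 with Activin than in the carrier control, and less with SB. A region was called different between treatments when its tags differed by an exact binomial test at a Benjamini-Hochberg adjusted p under 0.05, over all 12247 regions, and by at least 1.5-fold. The regions were chosen because a peak was listed there in at least 1 library, so part of a difference between that library and the others is given by the choice. The same holds for all 12247 regions, whose share called is therefore printed beside the counts. pSmad2 was pulled down in SB as well, and the SB library differed from the others in base composition: outside the regions, in windows of 65.0 to 67.5% GC, the SB ChIP held 1.55 times the DMSO level, and the SB input 1.28 times the DMSO input.

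Listed peaks were found at 7 of the 10 genes. Nanog, Sox2, Sall4, Klf2, Esrrb, Tbx3 and Zfp42 each had listed peaks in all 3 lists, while Klf4, Klf5 and Tcfcp2l1 had none in any list. A listed peak lay within 20 kb of 7 of the 10 genes in the Activin list, against 23.3% of all coding genes, in 7 of 10 in the DMSO list against 28.8%, and in 7 of 10 in the SB list against 24.7%. In any list it was 7 of 10 against 41.5%. The median window of the 10 genes was 53.0 kb and that of all coding genes 55.4 kb. The background of all coding genes was not matched for expression. The paper reports that pSmad2 binding rises with the expression of genes, and what this adds to the counts was not tested. The count stayed at 7 with 10 kb or 50 kb on each side and with peaks of at least 13 tags only. The windows held 31 Activin, 43 DMSO and 26 SB peaks, or 4.46, 6.18 and 3.74 per 100 kb, where the windows of all coding genes held 0.472, 0.717 and 0.514.

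Bound stretches were also found without the lists, by comparing ChIP and input tags in 200 bp bins. A bin was called above input when a one-sided exact binomial test gave an adjusted p under 0.05 and the ratio was at least 3-fold. In the 10 windows the Activin ChIP was above input in 26 of 252 bins with enough tags, the DMSO ChIP in 46 of 314 and the SB ChIP in 44 of 192. The shares over the genome were 2.5%, 3.14% and 4.19% of bins tested. All of these bins lay inside the listed regions, and none lay in the windows of Klf4, Klf5 or Tcfcp2l1. Tbx3 and Sall4, which have listed peaks, also had 0 such bins in Activin and in DMSO, and 1 each in SB. Zfp42 had 15 such bins in DMSO, Nanog had 14 in SB and 11 in Activin, and at Klf2 they numbered 1 (Activin), 7 (DMSO) and 11 (SB).

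The order of the genes by these counts differed from that by the ChIP-to-input ratio over whole windows. In Activin the ratio was 2.24 (95% interval 1.98 to 2.53) at Nanog, 1.97 (1.74 to 2.23) at Zfp42 and 1.96 (1.72 to 2.23) at Sox2, and these intervals overlapped. Klf2 followed with 1.32 (1.19 to 1.47), Tbx3 with 1.24 (1.08 to 1.41) and Esrrb with 1.23 (1.16 to 1.31). At Sall4 it was 1.08 (0.957 to 1.21), an interval that includes 1, where DMSO gave 1.28 (1.15 to 1.43). In SB the highest were Sox2 with 2.45 (2.15 to 2.81), Zfp42 with 2.40 (2.11 to 2.74) and Nanog with 2.39 (2.10 to 2.73).

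**Figure D1:**
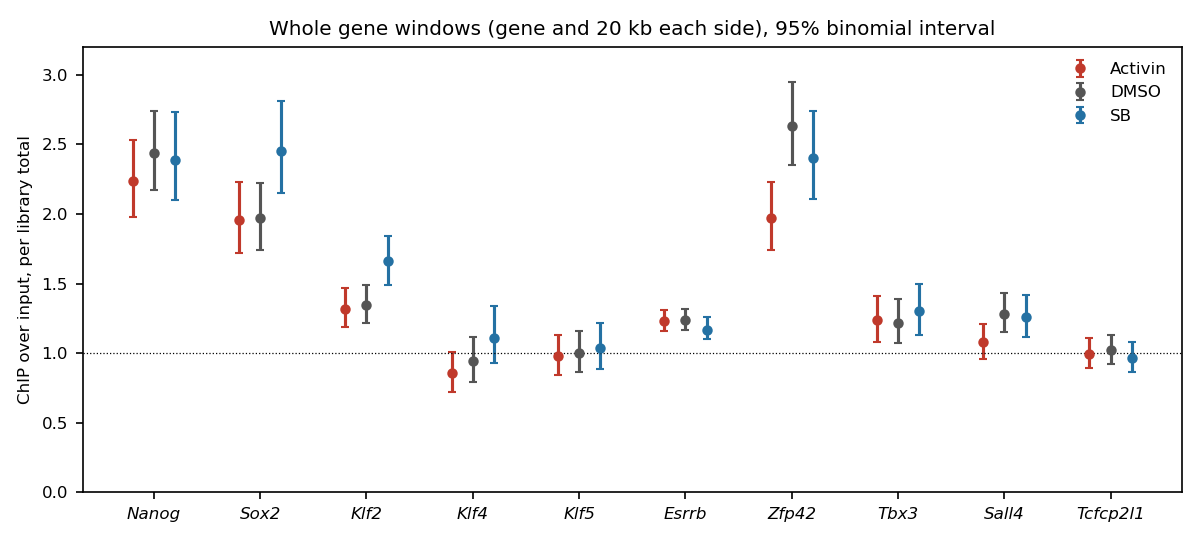
ChIP over input in the whole window of each gene, the gene and 20 kb on each side, for Activin (red), DMSO (grey) and SB (blue). Points are ratios of tags per library total and lines are 95% binomial intervals; Nanog, Sox2 and Zfp42 lie at 1.96 or above in all 3 treatments, and every point of Klf4, Klf5 and Tcfcp2l1 lies between 0.855 and 1.11.

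The 40 regions were spread unevenly, with 11 each at Esrrb and Zfp42, 7 at Nanog, 4 at Sox2, 3 each at Tbx3 and Sall4, and 1 at Klf2. They were 493 to 7289 bp wide. Their highest pileup, the largest number of overlapping 200 bp fragments in any library, lay in introns in 19 regions, between genes in 14 and in coding exons in 7. Only 4 lay within 1 kb of the start of their gene, at Nanog, Sox2, Klf2 and Tbx3. Counting the start of every annotated transcript of a coding gene it was 7 of 40, with 2 more at Tbx3 and 1 at Sall4, against 18.9% of all regions. Of the 40, 14 held a peak of all 3 lists, which 9.17% of all regions did. The median of the highest pileup was 15.0 fragments in the 40 regions and 10.0 over all regions. ChIP exceeded input, with the interval above 1, in 31 regions for Activin, 34 for DMSO and 29 for SB, and in 22 for all 3 treatments. Of all regions 41.8%, 53.4% and 41.4% did so, and 15.3% in all 3.

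**Figure D2:**
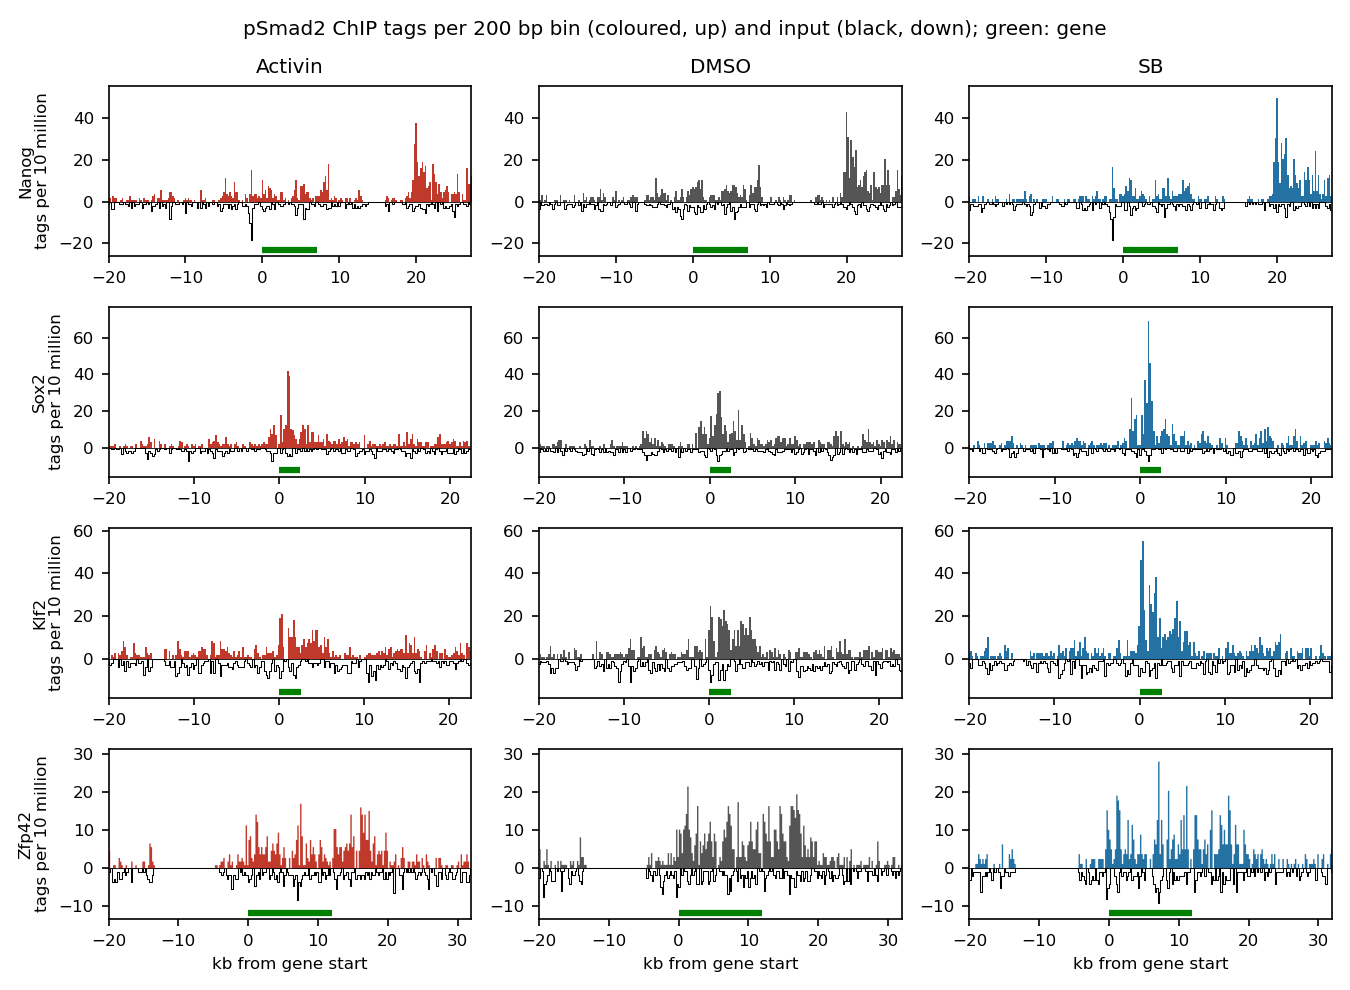
Tags per 10000000 in 200 bp bins over the windows of Nanog, Sox2, Klf2 and Zfp42, against the distance in kb from the gene start. ChIP is drawn upwards in colour and input downwards in black, in columns for Activin, DMSO and SB, and the green bar is the gene; the tallest columns stand near 20.1 kb at Nanog and close to the start at Sox2 and Klf2, and Zfp42 is covered over 20.6 kb.

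The tallest regions in the window of Nanog, a homeobox factor of the core network, lay downstream of the gene. The 3 regions of highest pileup formed a stretch of 9.23 kb with gaps of at most 31 bp, reaching into the neighbouring gene Slc2a3, which encodes a glucose transporter. Which of the 2 genes this binding serves was not tested. All 3 lay closer to a start of Slc2a3, at 6892 to 14703 bp, than to one of Nanog, at 19966 to 27777 bp. The tallest of them, chr6:122676686-122680877 (mm9) with its highest pileup at 20.1 kb between both genes, held 278 Activin, 296 DMSO and 259 SB tags. Its inputs held 46, 53 and 42. That is 6.25 times input in Activin (4.56 to 8.73), 6.85 in DMSO (5.10 to 9.36) and 7.73 in SB (5.56 to 11.0), all 3 intervals overlapping. Its pileup of 48 fragments stood at the 98.9 percentile of all regions. No comparison called it: Activin over DMSO was 0.866 (0.732 to 1.02) with an adjusted p of 0.225 in the exact binomial test, SB over DMSO was 1.09 (0.918 to 1.29) with 0.520, and Activin over SB was 0.795 (0.669 to 0.945) with 0.0499 but under 1.5-fold.

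The next region of this stretch was the one that differed most from DMSO. At chr6:122680881-122683368, with its highest pileup in a coding exon of Slc2a3, Activin gave 61 tags, DMSO 106 and SB 96, over inputs of 31, 28 and 16. Activin was thus the lowest of the 3 libraries. The region fell in Activin to 0.530 of DMSO (0.381 to 0.734; adjusted p = 0.0117 in the exact binomial test) and was at 0.471 of SB (0.336 to 0.655; adjusted p = 1.82e-04, exact binomial). SB over DMSO was 1.13 (0.846 to 1.5). The third region, chr6:122683400-122685920, crosses the end of the window and has its highest pileup in an intron of Slc2a3, outside the window. It held 86, 106 and 103 tags in the same order and was lower in Activin than in SB, at 0.618 (0.459 to 0.832; adjusted p = 0.0134, exact binomial), where Activin over DMSO was 0.748 (0.556 to 1.00). With scaling by GC content Activin over SB was 0.732 there and no longer called (adjusted p = 0.159, exact binomial).

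Upstream of Nanog the order was the opposite. The region chr6:122652304-122653085, with its highest pileup at -4.87 kb, held 24 Activin, 19 DMSO and 3 SB tags, while the inputs held 8, 9 and 12. ChIP was 3.10 times input in Activin (1.35 to 7.99), 2.59 in DMSO (1.12 to 6.50) and 0.313 in SB (0.0568 to 1.16), so the SB library was not above its input there. It was higher in Activin than SB, at 5.93 (1.80 to 30.7; adjusted p = 0.00921, exact binomial), and it was the only region of the 40 called in this direction. SB over DMSO was 0.197 (0.0372 to 0.668; adjusted p = 0.0498, exact binomial), and Activin over DMSO was 1.16 (0.611 to 2.25). The intervals are wide because few tags were counted, and the SB to DMSO call was lost when the tags within 20 kb set the scale (0.217; adjusted p = 0.0707, exact binomial) and in a fixed 500 bp (0.191; adjusted p = 0.123, exact binomial).

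The remaining 3 Nanog regions lay at 0.750, 4.31 and 8.56 kb from the start. The one at 8.56 kb, just past the end of the gene, held 65 Activin, 65 DMSO and 40 SB tags and was 3.95, 4.69 and 2.79 times input. The region at 4.31 kb, in a coding exon of Nanog, held 59, 65 and 39 tags at 1.85, 1.85 and 1.88 times input, and that at 0.750 kb held 50, 67 and 40 at 2.35, 2.11 and 2.18. None of the 3 was called in any comparison, and their Activin over DMSO ratios ran from 0.688 to 0.922. The 7 regions of the Nanog window, 15.7 kb with those closer to the start of Slc2a3, held 623, 724 and 580 tags in Activin, DMSO and SB when added up. These sums were 3.34 (2.84 to 3.94), 3.96 (3.41 to 4.63) and 4.60 (3.85 to 5.52) times input, with Activin over DMSO at 0.793 (0.712 to 0.884) and SB over DMSO at 0.997 (0.892 to 1.11).

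The sequences around the highest pileup show what lies at 3 of these sites, on the plus strand of mm9 with CAGA or its complement TCTG in capitals. They are the tallest one (chr6:122677477-122677676), the one lower in Activin (chr6:122682362-122682561) and the upstream one (chr6:122652542-122652741).
Nanog tallest site: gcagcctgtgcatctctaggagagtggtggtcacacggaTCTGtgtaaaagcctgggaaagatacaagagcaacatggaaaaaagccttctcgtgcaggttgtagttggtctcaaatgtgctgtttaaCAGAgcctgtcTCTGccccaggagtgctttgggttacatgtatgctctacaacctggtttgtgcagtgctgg
Nanog site in Slc2a3: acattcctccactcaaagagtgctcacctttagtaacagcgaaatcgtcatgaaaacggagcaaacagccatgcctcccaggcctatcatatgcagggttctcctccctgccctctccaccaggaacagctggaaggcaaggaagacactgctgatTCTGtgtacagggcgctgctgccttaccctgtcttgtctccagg
Nanog upstream site: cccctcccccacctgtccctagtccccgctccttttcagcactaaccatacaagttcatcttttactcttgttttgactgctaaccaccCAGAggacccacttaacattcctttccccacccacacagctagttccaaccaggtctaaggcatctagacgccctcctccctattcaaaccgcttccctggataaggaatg
The first holds 3 CAGA matches, and the others hold 1 each.

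Sox2, the partner of Oct4 on many enhancers, carried the highest pileup of all 40 regions. The region chr3:34547098-34554386 covers the whole single-exon gene, and its highest pileup of 59 fragments, in SB, lay 0.994 kb from the start in the coding exon, at the 99.3 percentile of all regions. It held 318 Activin, 329 DMSO and 347 SB tags, over inputs of 63, 75 and 59. Per library total this is 302, 339 and 445 tags per 10000000, highest in SB. ChIP was 5.22 times input in Activin (3.97 to 6.95), 5.38 in DMSO (4.18 to 7.01) and 7.37 in SB (5.58 to 9.89), with overlapping intervals.

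The Sox2 region was not called between treatments, although 2 of its adjusted p were low. SB over DMSO was 1.31 (1.13 to 1.53; adjusted p = 0.0168, exact binomial) and Activin over SB was 0.679 (0.581 to 0.793; adjusted p = 5.50e-05, exact binomial), both short of 1.5-fold. The 500 bp around the highest pileup have 66.2% GC. When the libraries were scaled by GC content, SB over DMSO was 0.845 and Activin over SB was 1.22, on the other side of 1. That scaling applied the GC content of these 500 bp to the whole region of 7289 bp. In a fixed 500 bp, centred on the highest pileup of SB and so in its favour, Activin gave 90 tags, DMSO 64 and SB 94, and SB was called higher than DMSO at 1.83.

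A weaker Sox2 region at 14.7 kb downstream (chr3:34562754-34564453), between genes, was lower in Activin than SB. It held 30, 36 and 45 tags in Activin, DMSO and SB, a ratio of 0.494 (0.300 to 0.801; adjusted p = 0.0258, exact binomial), and 1.29, 1.34 and 3.13 times input. The intervals of ChIP over input reached below 1 in Activin (0.730) and in DMSO (0.811). With GC scaling the ratio was 0.513 and the adjusted p 0.0532. Regions at 7.30 and 18.6 kb were low, with 27, 26 and 28 tags and 16, 16 and 7, and were not called. The sites are shown as chr3:34549821-34550020 and chr3:34563531-34563730, plus strand, CAGA or TCTG in capitals.
Sox2 coding exon: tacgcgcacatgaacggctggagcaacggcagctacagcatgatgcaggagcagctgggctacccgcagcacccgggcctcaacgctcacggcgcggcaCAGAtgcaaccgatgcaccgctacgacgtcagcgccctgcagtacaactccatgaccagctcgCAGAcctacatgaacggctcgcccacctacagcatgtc
Sox2 downstream site: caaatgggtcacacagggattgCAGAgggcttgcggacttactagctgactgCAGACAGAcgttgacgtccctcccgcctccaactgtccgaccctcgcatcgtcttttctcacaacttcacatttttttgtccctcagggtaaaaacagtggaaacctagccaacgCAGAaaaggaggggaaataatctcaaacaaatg
The first holds 2 CAGA matches, 1 of them as CAGAC, and the second holds 4, with a pair side by side, and 2 matches to CAGAC, which share a base.

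Sall4, a zinc finger partner of Nanog and Oct4, had low regions only. The highest, chr2:168579656-168582301 in a coding exon 12.0 kb from the gene start and at -49 bp from the start of a shorter annotated transcript, held 62 Activin, 75 DMSO and 73 SB tags, over inputs of 45, 49 and 36. ChIP was 1.42 times input in Activin (0.955 to 2.14), 1.88 in DMSO (1.29 to 2.75) and 2.54 in SB (1.68 to 3.90). Activin over SB was 0.629 (0.441 to 0.895), called with an adjusted p of 0.0499 in the exact binomial test, and the call was lost under GC scaling (0.865) and local scaling (0.795).

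A second Sall4 region, chr2:168571214-168573782, lies past the end of the gene, 22.0 kb from its start. It held 40 Activin, 45 DMSO and 56 SB tags and was lower in Activin than SB at 0.529 (0.344 to 0.808; adjusted p = 0.0226, exact binomial). GC scaling gave 0.530 and kept the call, local scaling gave 0.677 and lost it. The third region, in an intron at 6.35 kb, held 16, 9 and 10 tags and was not called. Outside the regions of the window the Activin ChIP also stood at 0.828 of SB (0.725 to 0.946). The sequence of the region behind the gene, chr2:168571358-168571557 on the plus strand (the gene is on the minus strand), has 44.0% GC and 3 CAGA matches, shown in capitals with the complement.
Sall4 downstream site: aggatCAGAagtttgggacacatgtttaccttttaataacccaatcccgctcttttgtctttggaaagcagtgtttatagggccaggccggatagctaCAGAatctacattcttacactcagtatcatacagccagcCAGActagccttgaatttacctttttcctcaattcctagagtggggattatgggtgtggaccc

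Of the 3 Klf genes only Klf2, a zinc finger factor that helps to hold the naive state, had listed peaks. Its single region, chr8:74842484-74849065, covers the gene and the sequence behind it, with the highest pileup 0.308 kb from the start in an intron. Activin gave 286 tags, DMSO 379 and SB 430, or 271, 390 and 551 per 10000000, so that they stood in the order Activin, DMSO, SB from low to high. Inputs held 95, 128 and 114 tags. ChIP was 3.11 times input in Activin (2.46 to 3.97), 3.63 in DMSO (2.96 to 4.47) and 4.73 in SB (3.84 to 5.87).

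Klf2 gave the smallest adjusted p of the 40 regions. It was lower in Activin than SB at 0.493 (0.423 to 0.573; adjusted p = 5.96e-18, exact binomial). Activin over DMSO was 0.696 (0.595 to 0.813; adjusted p = 0.00186, exact binomial) and SB over DMSO was 1.41 (1.23 to 1.63; adjusted p = 2.78e-04, exact binomial), both under 1.5-fold and so not called. In a fixed 500 bp, centred on the highest pileup of SB, which favours that library, SB stood at 2.39 times DMSO, with 48, 48 and 92 tags. The site has 65.6% GC, and scaling by GC content moved Activin over SB to 0.888 (adjusted p = 0.330, exact binomial) and SB over DMSO to 0.909, with no call left. That scaling used the GC content of the 500 bp around the highest pileup for all 6582 bp. The GC content of the rest of the region did not enter. Scaling by the tags within 20 kb gave 0.491 for Activin over SB, and the region was then also lower in Activin than DMSO at 0.608. The sequence chr8:74843140-74843339, plus strand, holds 1 CAGA match in capitals and 12 CpG steps.
Klf2 intron site: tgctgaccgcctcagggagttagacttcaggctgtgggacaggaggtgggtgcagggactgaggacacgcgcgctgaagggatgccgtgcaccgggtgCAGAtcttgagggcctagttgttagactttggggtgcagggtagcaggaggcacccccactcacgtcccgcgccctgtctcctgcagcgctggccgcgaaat

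Klf4 and Klf5, relatives of Klf2 that overlap with it in function, had no listed peak. Over the Klf4 window ChIP was 0.855 of input in Activin (0.722 to 1.01), 0.944 in DMSO (0.796 to 1.12) and 1.11 in SB (0.928 to 1.34). At Klf5 the values were 0.978 (0.846 to 1.13), 1.00 (0.868 to 1.16) and 1.04 (0.887 to 1.22). The highest pileup anywhere in the Klf4 window was 8 fragments in Activin, 11 in DMSO and 7 in SB. In the 500 bp around that of DMSO, 14 ChIP tags stood over 10 input tags, a ratio of 1.72 (0.709 to 4.32). The highest pileup at Klf5 was 9, 9 and 11. The nearest listed peak lay 101 kb from Klf4 in the Activin list, 140 kb in DMSO and 176 kb in SB. From Klf5 it lay 94.9, 103 and 74.3 kb away, and all of these were peaks of 25 tags or fewer. The lowest listed peaks of the genome had 9, 8 and 9 tags. This number alone was not the limit, since the 14 DMSO tags at Klf4, over 10 input tags, were not listed. Binding too weak to stand out from input was not detectable at this depth.

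**Figure D3:**
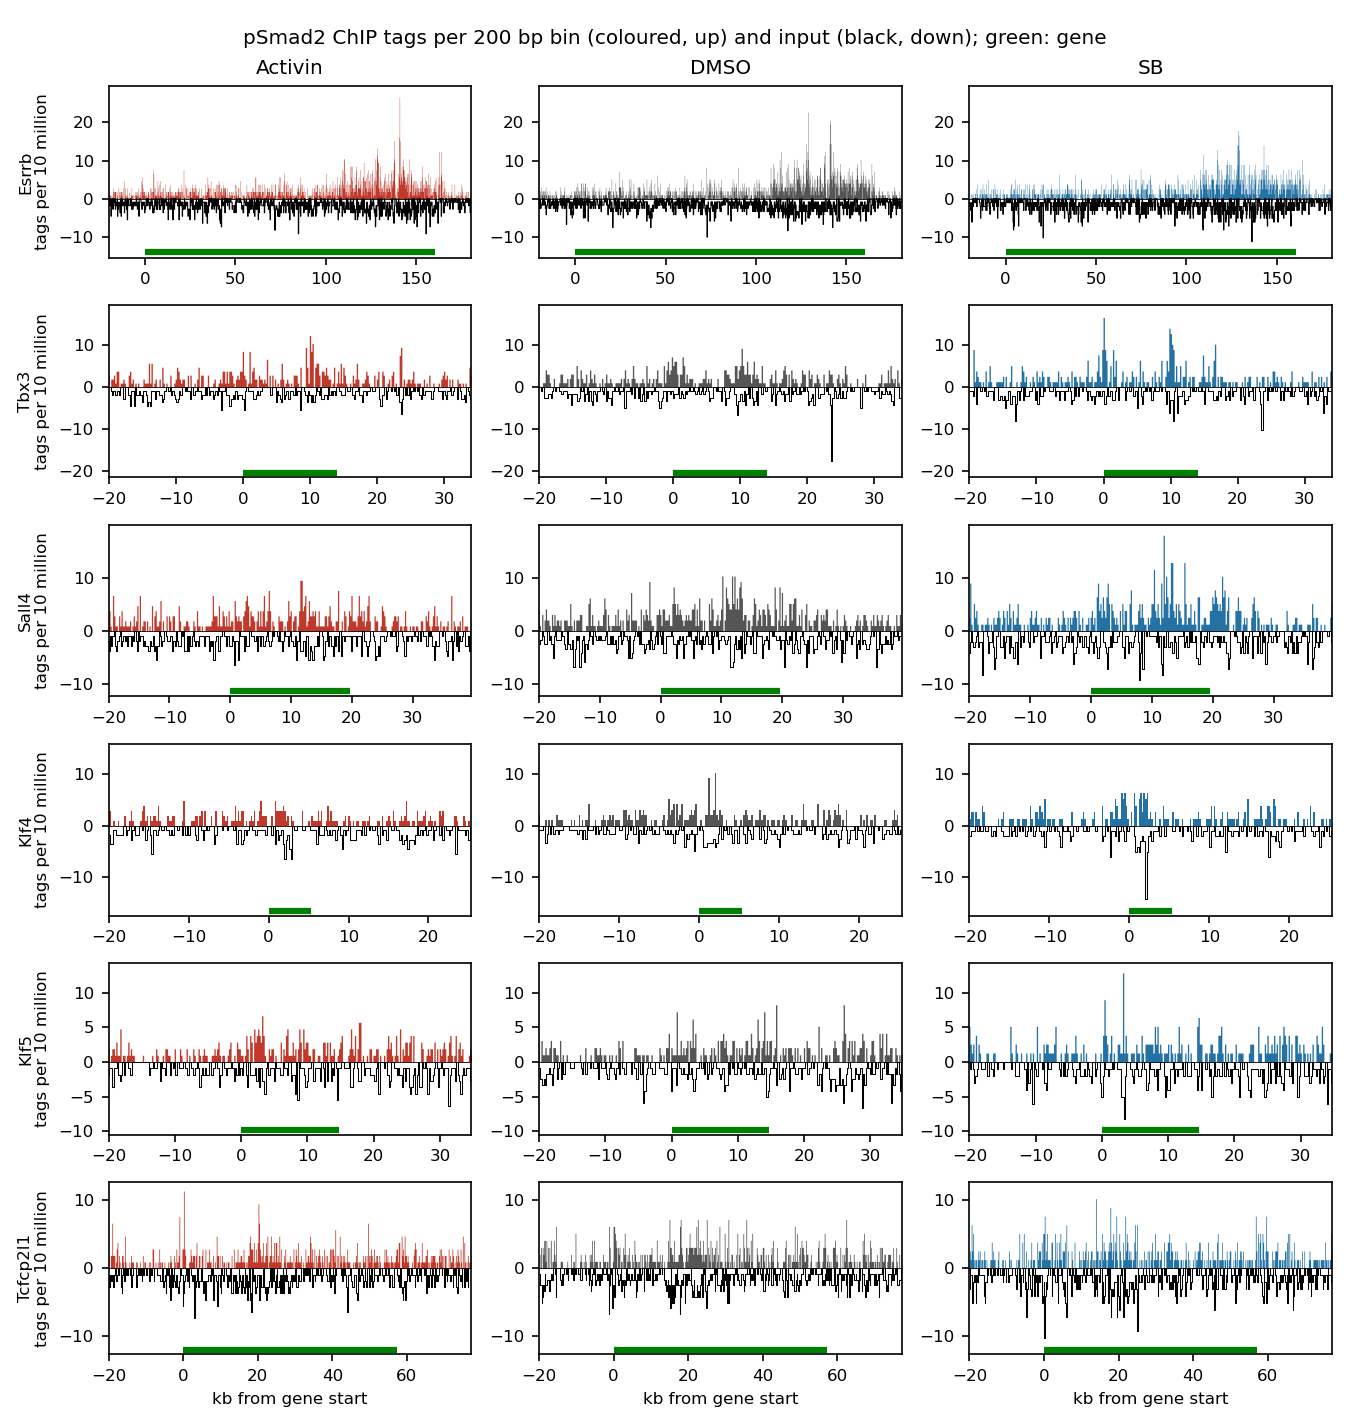
Tags per 10000000 in 200 bp bins over the windows of Esrrb, Tbx3, Sall4, Klf4, Klf5 and Tcfcp2l1, drawn as for the taller loci with ChIP upwards in colour, input downwards in black and the gene as a green bar. Esrrb rises above its input in the far part of the gene, 110.0 to 164.0 kb from the start, and in the 3 lowest rows the window ratios of ChIP over input lie between 0.855 and 1.11, with intervals that include 1.

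Esrrb, an orphan nuclear receptor that sustains self-renewal, had 11 regions, all in the last part of the gene and just behind it, from 110.0 to 164.0 kb past the gene start. A shorter annotated Esrrb transcript starts inside the gene, and the regions lay 1.13 to 54.8 kb past that start, the highest one 31.9 kb. The highest, chr12:87842464-87846575 in an intron at 141 kb, held 171 Activin, 157 DMSO and 90 SB tags, over inputs of 60, 66 and 57. ChIP was 2.95 times input in Activin (2.18 to 4.02), 2.92 in DMSO (2.18 to 3.95) and 1.98 in SB (1.41 to 2.81). SB was the lowest of the 3. Over the whole 4112 bp no comparison was called: Activin over DMSO was 1.00 (0.804 to 1.25), SB over DMSO was 0.713 (0.544 to 0.930; adjusted p = 0.0711, exact binomial) and Activin over SB was 1.41 (1.08 to 1.84; adjusted p = 0.0487, exact binomial, under 1.5-fold).

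At the top of this Esrrb region the libraries differed more. In the 500 bp around the highest pileup Activin gave 48 tags, DMSO 42 and SB 7, over inputs of 10, 9 and 8. ChIP was 4.96 times input in Activin (2.48 to 11.0) and 5.72 in DMSO (2.75 to 13.4), and in SB it was 1.10 (0.339 to 3.46), not above input. With this fixed width SB over DMSO was 0.207 (adjusted p = 0.00182, exact binomial) and Activin over SB was 5.08 (adjusted p = 3.04e-04, exact binomial), both called, and Activin over DMSO was 1.05. The pileup, not scaled for the library totals, of which that of SB was the smallest, reached 33 fragments in Activin, 26 in DMSO and 13 in SB. In SB its highest point lay 1800 bp further on. The 500 bp were centred on the highest pileup of any library, here Activin, which favours that library. Scaling by GC content gave a call over the whole region as well, with SB over DMSO at 0.615 and Activin over SB at 1.58.

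Among the other 10 Esrrb regions 1 was called, at 122 kb (chr12:87823465-87826287), which held 56 Activin, 78 DMSO and 69 SB tags. It was lower in Activin than SB at 0.601 (0.415 to 0.868; adjusted p = 0.0340, exact binomial), a call lost under GC scaling (0.756), local scaling (0.639) and the fixed width (0.741). The second in height, in an intron at 129 kb, held 119 Activin, 139 DMSO and 119 SB tags, at 2.28, 2.71 and 3.05 times input, and SB over DMSO was 1.07 there. At 138 kb the tags were 53, 46 and 25, and behind the gene at 164 kb they were 35, 19 and 12, with Activin over SB at 1.57 and 2.16 (adjusted p = 0.188 and 0.0796, exact binomial). Added up over all 11 regions, 19.5 kb, the gene held 606, 599 and 440 tags, with Activin over DMSO at 0.933 (0.832 to 1.05) and SB over DMSO at 0.914 (0.806 to 1.04). The sequence of the highest site, chr12:87842840-87843039 on the plus strand, has 2 CAGA matches in capitals.
Esrrb intron site: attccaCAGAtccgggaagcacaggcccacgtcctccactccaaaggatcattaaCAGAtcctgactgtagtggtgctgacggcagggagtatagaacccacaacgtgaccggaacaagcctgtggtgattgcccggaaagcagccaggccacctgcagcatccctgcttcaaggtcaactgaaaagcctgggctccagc

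Tcfcp2l1, a naive state factor of the CP2 family, had no listed peak. Its window gave 0.996 of input in Activin (0.895 to 1.11), 1.02 in DMSO (0.926 to 1.13) and 0.965 in SB (0.865 to 1.08). The highest pileup was 12 fragments in Activin, 131 bp behind the start, where 16 ChIP tags stood over 10 input tags in 500 bp, a ratio of 1.65 (0.706 to 4.08). The nearest listed peaks lay 169, 105 and 168 kb away in the Activin, DMSO and SB lists.

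Tbx3, a T-box factor downstream of LIF signaling, had 3 regions of low height. That at the promoter, chr5:120119602-120121246 with its highest pileup at -90 bp, held 29 Activin, 41 DMSO and 44 SB tags, over inputs of 20, 17 and 14. ChIP was 1.5 times input in Activin (0.819 to 2.80), 2.96 in DMSO (1.64 to 5.55) and 3.94 in SB (2.12 to 7.79), so Activin was not above input. It was lower in Activin than SB at 0.488 (0.295 to 0.798; adjusted p = 0.0240, exact binomial). At 66.4% GC this call, too, was lost with GC scaling, which gave 0.880. The other regions, at 9.79 and 10.3 kb in a coding exon and at -297 and 221 bp from the start of a shorter transcript, were listed in Activin only, with 16 and 33 tags there, 8 and 22 in DMSO and 13 and 28 in SB. Neither was called. The promoter sequence chr5:120120488-120120677, plus strand, up to the start of the annotated transcript, has 72.1% GC, 19 CpG steps and 1 CAGAC in which CAGA is in capitals.
Tbx3 promoter: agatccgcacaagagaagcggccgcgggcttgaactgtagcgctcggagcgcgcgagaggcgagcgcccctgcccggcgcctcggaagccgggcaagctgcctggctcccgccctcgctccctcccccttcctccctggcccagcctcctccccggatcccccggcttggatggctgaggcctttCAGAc

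Zfp42 (Rex1), a zinc finger gene used as a marker of the naive state, was covered along its length. Its 11 regions lay side by side over 20.6 kb, through the gene and behind its end, and held, on 35.1% of the window's length, 75.8% of its Activin, 79.0% of its DMSO and 79.5% of its SB ChIP tags. The tallest, chr8:44373755-44376959 at 16.9 kb between genes, held 128 Activin, 161 DMSO and 105 SB tags, over inputs of 30, 49 and 38. ChIP was 4.41 times input in Activin (2.95 to 6.80), 4.03 in DMSO (2.91 to 5.67) and 3.46 in SB (2.37 to 5.16), and it was not called in any comparison.

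DMSO was the highest library over most of Zfp42, whose 11 regions were all listed in DMSO, 6 of them in Activin and 7 in SB. Activin over DMSO was under 1 in 10 of the 11 and SB over DMSO in 8. Of all regions listed in DMSO 90.5% and 77.3% were under 1 in these ratios, so that the counts at Zfp42 lay near the background. With the tags within 20 kb as the scale they were 10 and 5 of 11. Close to the start, at 1.23 kb in an intron, the counts were 109 (Activin), 150 (DMSO) and 109 (SB) tags. Activin over DMSO was 0.670 there, with an adjusted p of 0.0340 in the exact binomial test but just under 1.5-fold. At 7.01 kb they were 60, 88 and 64, and at 14.5 kb, behind the gene, 62, 88 and 44, with adjusted p of 0.0588 and 0.0682 for Activin over DMSO in the exact binomial test. Added up, the 11 regions held 548 Activin, 767 DMSO and 531 SB tags. Activin was at 0.659 of DMSO (0.589 to 0.736) and SB at 0.862 (0.770 to 0.964). Since all 11 were listed in DMSO, part of both ratios is given by the choice of regions. No background was computed for such sums, and the intervals cover counting error only. Outside these regions the window's Activin ChIP stood at 0.799 of DMSO (0.644 to 0.991) and the SB ChIP at 0.900 (0.717 to 1.13).

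One Zfp42 region was called, chr8:44380947-44382608 with its highest pileup in the coding exon 11.1 kb from the start. It held 30 Activin, 65 DMSO and 58 SB tags, over inputs of 17, 22 and 18, so Activin was the lowest. It fell in Activin to 0.425 of DMSO (0.266 to 0.665; adjusted p = 0.0123, exact binomial) and was at 0.383 of SB (0.238 to 0.605; adjusted p = 4.86e-04, exact binomial). ChIP over input was 1.82 in Activin (0.974 to 3.53), 3.62 in DMSO (2.20 to 6.17) and 4.04 in SB (2.35 to 7.29). GC scaling gave 0.413 and 0.453 and local scaling 0.510 and 0.389, all called. In the fixed 500 bp Activin over DMSO was 0.284, with an adjusted p of 0.0531 in the exact binomial test. The sequence chr8:44381188-44381387 is given on the plus strand (the gene is on the minus strand) and has 3 CAGA matches, all as TCTG here.
Zfp42 coding exon: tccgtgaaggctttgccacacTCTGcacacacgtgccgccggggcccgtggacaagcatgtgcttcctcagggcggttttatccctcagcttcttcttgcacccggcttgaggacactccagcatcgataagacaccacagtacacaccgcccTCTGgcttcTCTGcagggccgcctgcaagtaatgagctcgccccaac

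**Figure D4:**
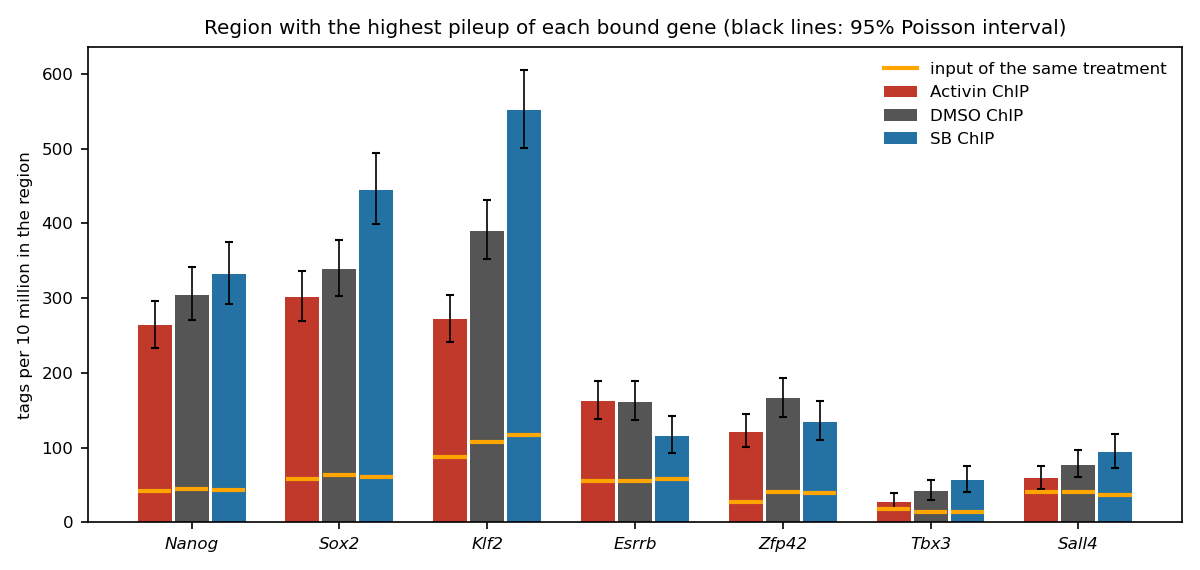
Tags per 10000000 in the region of highest pileup of each of the 7 genes with listed peaks. Bars are Activin (red), DMSO (grey) and SB (blue) with 95% Poisson intervals, and the orange line is the input of the same treatment. Klf2 goes from 271 in Activin over 390 in DMSO to 551 in SB, Nanog stays between 264 and 332, and Esrrb is lowest in SB with 115.

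Counted by comparison, the calls at these genes went in both directions. Between Activin and DMSO 0 of 40 regions were higher in Activin, against 2.31% of all regions, and 2 were lower, at Nanog and Zfp42, against 5.93%. The one listed at Nanog had its highest pileup in Slc2a3. At an unadjusted p under 0.05 it was 10 of 40 in either direction, against 29.7% of all regions. Between SB and DMSO 0 were higher, against 4.78%, and 1 was lower, upstream of Nanog, against 3.31%, with 7 of 40 at an unadjusted p under 0.05, against 29.7%. Between Activin and SB 1 was higher in Activin, the same Nanog region, against 4.76%. Another 9 were lower in Activin, against 11.9%: 2 at Nanog, 2 at Sall4, and 1 each at Sox2, Klf2, Esrrb, Tbx3 and Zfp42. The 2 listed at Nanog both had their highest pileup in Slc2a3. The medians of the ratios were 0.804 for Activin over DMSO (0.811 over all regions), 1.08 for SB over DMSO (0.933) and 0.852 for Activin over SB (0.833). Most shares were near or under the background shares. The 3 comparisons share libraries and are not independent of each other.

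Base composition moved with the Activin to SB comparison. Of the 6 regions with at least 60% GC, 3 were lower in Activin than SB, and of the 1462 such regions in the genome 40.2% were, against 8.05% of those under 60%. Under 60% GC 6 of the 34 regions at these genes were lower in Activin than SB. After scaling by GC content 3 of the 40 were lower in Activin than SB, at Nanog, Sall4 and Zfp42, and 2 were higher, at Nanog and Esrrb, where 4.01% and 4.34% of all regions were called in these directions. The lower one listed at Nanog had its highest pileup in Slc2a3. The background ratio of Activin to SB in windows of 65.0 to 67.5% GC outside the regions was 0.554 in ChIP and 0.654 in input. The input libraries alone were compared over the 12247 regions by the same test, without the fold threshold. They differed in 12 regions between Activin and SB and in 1 in each of the other comparisons. In the 40 regions at these genes the inputs were at least 1.5-fold apart, without a test, in 7 for Activin against DMSO, 9 for SB against DMSO and 8 for Activin against SB.

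**Figure D5:**
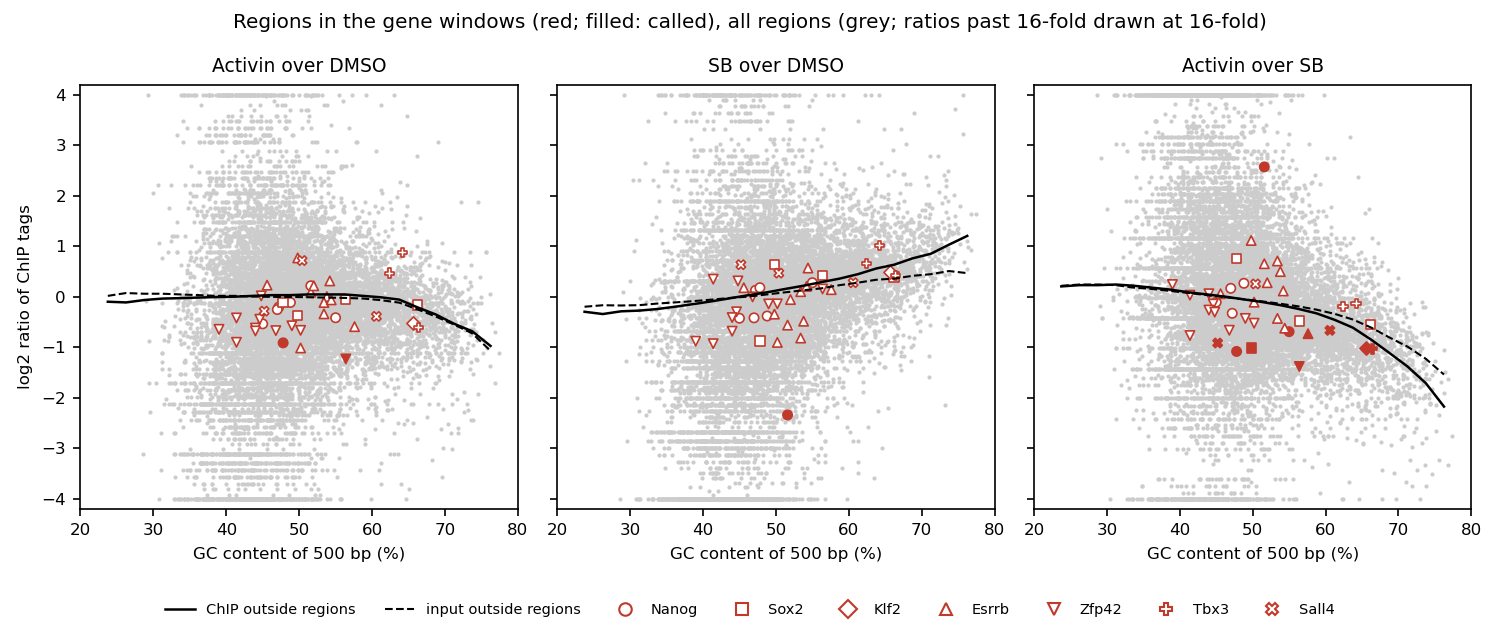
Log2 ratio of ChIP tags between treatments against GC content of the 500 bp around the highest pileup, for the 40 regions at the 7 genes (red symbols, filled where called) and all 12247 regions (grey). The black line is the ChIP ratio outside the regions and the broken line that of the inputs; in Activin over SB both drop above 60% GC, to 0.554 and 0.654 at 65.0 to 67.5%, where Klf2, Tbx3 and Sox2 lie.

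Short motifs were looked up on both strands in the 200 bp around the highest pileup of each region. The Smad-binding element CAGA was found at 40 of 40 sites, in 92.7% of all regions and at 91.4% of random positions. A match to this short element alone therefore does not mark a site as bound. The longer CAGAC, which contains it, was at 20 of 40 sites, in 44.8% of all regions and at 32.9% of random positions. AATNCACA, bound by the Smad partner Foxh1, was found at 4 of 40 sites, in 6.00% of all regions and at 4.52% of random positions. The octamer ATGCAAAT was at 0 of 40 sites, in 1.17% of all regions and at 1.48% of random positions. For the AP-1 element TGANTCA it was 1 of 40, a Zfp42 site, with 5.45% of all regions and 6.21% of random positions. The AATNCACA matches lay at Nanog, Esrrb, Tbx3 and Zfp42 sites.

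The other genes of the network were followed as a list of 24, among them members of the LIF pathway and the Dppa genes. A listed peak lay within 20 kb of 15 of them in the Activin list, 14 in DMSO, 13 in SB and 17 in any list, where any list reached 41.5% of all coding genes. Their windows held 44 regions, counted once per gene, of which 5 were called higher in Activin than SB and 5 lower, where 4.76% and 11.9% of all regions were. Those higher in Activin lay at Mycn, at Dppa5a (2) and between Dppa2 and Dppa4, which share 1. The Dppa5a region with the larger ratio (chr9:78215443-78216794) held 39 Activin, 33 DMSO and 7 SB tags, a ratio of 4.13 (1.82 to 10.9; adjusted p = 0.00297, exact binomial). The Mycn region (chr12:12949586-12950965) held 47, 47 and 13 tags, at 2.68 (1.43 to 5.40; adjusted p = 0.0120, exact binomial). Both were also lower in SB than DMSO. Those lower in Activin lay at Fgf4, Il6st, Nr0b1 and Sall1 (2), the last with 218, 236 and 265 tags and a ratio of 0.609 (0.507 to 0.732).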

How the data were processed

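The authors deposited 6 files of aligned 35 bp tags on mm9, 1 ChIP and 1 input library per treatment, and 3 peak lists made with MACS, whose tag number per peak is a count deposited by the authors. For the aligner, its settings and the MACS version, nothing was given in the sources used here. The lists hold a position and no borders. This position is the peak end in the DMSO and SB lists and lies near the summit in the Activin list. Most peaks were rebuilt from the tags by the MACS procedure. For 762 DMSO and 516 SB peaks the second border was instead placed to take in as many tags as the list gives. A fixed width was used for 37 Activin peaks, so the 3 lists were not handled alike. Peaks overlapping by 1 bp or more were joined. The rebuilt tag number lay within 10% of the listed one for 92.0% of peaks in the Activin list, 89.7% in the DMSO list and 89.2% in the SB list. Genes and sequence came from GENCODE and NCBIM37, which is the same assembly as mm9.

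Tags were kept once per position and strand, since copies are not independent, and placed at the middle of a 200 bp fragment. In the ChIP files 19.9% (Activin), 24.6% (DMSO) and 20.0% (SB) of tags shared a position, against 5.64% to 6.94% in the inputs. Treatments were compared per region with a two-sided exact binomial test, given library totals, and ChIP with input in 200 bp bins of at least 10 tags with a one-sided one (scipy 1.17.1), adjusted over all regions or bins. Intervals are exact Clopper-Pearson, at 95%. Tests were checked on simulated counts that held counting error only. That check could not cover the spread between cultures, base composition or the choice of regions by the peak lists.

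The genes, lists and rules were chosen with earlier results of these data known. The text describes, for each gene, the region of highest pileup and every region called in a comparison. Sequences are of called sites, 1 per gene in order of adjusted p. Those of the tallest Nanog and Sox2 sites, the upstream Nanog site and the Esrrb site were added after their values were seen, and so were the sums over all regions of a gene and the further regions of Nanog, Sox2, Sall4, Esrrb, Tbx3 and Zfp42 that were not called. Alternatives covered duplicate tags, scaling by outside, local or GC-matched tags, thresholds and region width. GC scaling used the GC content of the 500 bp around the highest pileup for the whole region. Whether it corrects too much or too little in wide regions was not tested. No library was left out.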

Additional observations from a re-analysis of the deposited data

How the results depend on the processing

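The genes with a listed peak stayed at 7 in each list under 10 kb, 50 kb and at least 13 tags. Counts of called regions were small and moved with most choices, as did the share of all regions called, given here in brackets. Regions lower in Activin than DMSO numbered 2 (5.93%), and 6 with all deposited tags (17.5%), 4 with GC scaling (5.99%), 4 without a fold threshold (6.45%), 1 in a fixed 500 bp (1.15%) and 0 at an adjusted p under 0.01 (0.171%). Regions higher in SB than DMSO numbered 0 (4.78%), and 1 with all deposited tags (10.3%), 2 without a fold threshold (5.17%) and 2 in the fixed 500 bp (2.19%). Regions lower in SB than DMSO numbered 1 (3.31%), and 4 with all deposited tags (12.3%), 2 with GC scaling (2.70%), 0 with the tags within 20 kb (3.28%) and 0 at an adjusted p under 0.01 (0.629%). In the fixed 500 bp it was 1 again (1.80%), but at Esrrb, the call upstream of Nanog being lost. Regions higher in Activin than SB numbered 1 (4.76%), and 3 with all deposited tags (8.85%), 2 with GC scaling (4.34%), 3 with the tags within 20 kb (4.23%), 2 without a fold threshold (4.77%) and 2 in the fixed 500 bp (3.57%). Regions lower in Activin than SB numbered 9 (11.9%), and 3 with GC scaling (4.01%), 3 at an adjusted p under 0.01 (4.84%) and 4 in the fixed 500 bp (6.88%). The fixed 500 bp lost the calls at the Sox2 downstream site, both Sall4 sites, the Tbx3 promoter and the Esrrb site at 122 kb. Regions higher in Activin than DMSO stayed at 0 under all 7 alternatives. Bins above input in the windows came to 26 for Activin, 46 for DMSO and 44 for SB, and to 6, 11 and 19 when bins of at least 5 tags were tested, which adds bins to the correction; in DMSO they numbered 70 with all deposited tags and 71 against the 3 inputs summed. Apart from the stricter thresholds, which by construction leave fewer calls, the cause was not tested.

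Depth limits these counts: where a region holds few tags only large differences pass the test, and with 1 library per treatment the spread between cultures is unknown. No paired analysis was possible because each treatment has 1 ChIP library.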
